A study of Homo sapiens with 8 samples.

Results

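The genes described here encode the subunits of the mitochondrial respiratory chain and of ATP synthase that are made from nuclear chromosomes. They were taken by name, with the symbols of NDUFA to NDUFV, SDHA to SDHD, UQCR, COX4 to COX8 and ATP5 genes, leaving out names that mark pseudogenes and keeping the row with the highest mean where a symbol had several. The rule found 82 of the 60332 genes in the expression matrix, of which 76 reached a mean of 1 FPKM over the libraries and were tested among 15175 genes. FPKM is a read number divided by transcript length and library size. Complex I has 36 of the tested genes, complex II 4, complex III 9, complex IV 11 and complex V 16. The RNA came from RD-ES and SK-N-MC, established lines of Ewing sarcoma, a bone and soft tissue tumor driven by a fusion of EWSR1 to an ETS transcription factor. Each line gave 2 control and 2 eKD2 libraries, 8 in all. The eKD2 cells carried lentiviral dCas9-KRAB, a non-cutting Cas9 joined to a repressor domain, with 1 guide RNA directed to the GGAA microsatellite enhancer of LOXHD1. The labels describe the control cells as carrying the same virus without a guide to that site, whereas the study's text calls them parental. For both, the multiplicity of infection was 10, puromycin selection (1 µg/ml) lasted 3 days, and no more than 5 passages followed. The study describes eKD cells as polyclonal pools and the libraries as biological duplicates, and the labels do not say whether these were separate cultures, so that p-values measure the spread between the libraries.

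Complex I, the NADH dehydrogenase, and complex II, the succinate dehydrogenase, pass electrons to ubiquinone. Complex III passes them on to cytochrome c, complex IV, the cytochrome c oxidase, hands them to oxygen, and complex V, the ATP synthase, makes ATP from the proton gradient that complexes I, III and IV build. Nuclear genes encode most subunits and all of complex II, while the mitochondrial chromosome encodes some of the central subunits of the others, whose transcripts were not analysed here. The promoters of many of these nuclear genes carry sites for GABP, an ETS factor, for NRF1 and for YY1.

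RefSeq promoter sequences (build GRCh38.p14, 250 bases before to 50 bases after the gene start) were matched by gene for 61 of the 76 tested genes. The 7 letters CCGGAAG, the core bound by GABP and other ETS factors, stood on either strand in 18 of the 61 promoters (29.5%), against 10.7% of all 27305 promoters and 14.2% of those of protein-coding genes. The NRF1 word GCGCATGC stood in 21.3%, against 3.27% of all promoters and 4.26% of those of protein-coding genes. The YY1 word AAGATGGC stood in 18%, against 3.03% and 3.91%. At least 1 of the 3 words stood in 32 of the 61 promoters (52.5%), against 15.6% and 20.3%. The words share no overlap in the sequences printed, and a match describes letters, not a bound site. Printed below are 4 genes with the ETS core that differed between the lines, 3 of them lower and 1 (ATP5H) higher in SK-N-MC. The 150 bases just before the start are shown for each. They run 5′ to 3′ on the strand of the gene, with the words in capitals on either strand (CTTCCGG is the reverse complement of CCGGAAG).
ATP5J (ATP5PF), chr21:25735055-25735204, minus strand: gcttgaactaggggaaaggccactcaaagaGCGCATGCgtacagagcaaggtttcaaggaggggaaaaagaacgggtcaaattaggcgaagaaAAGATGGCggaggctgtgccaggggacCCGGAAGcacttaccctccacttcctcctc
UQCRH, chr1:46303548-46303697, plus strand: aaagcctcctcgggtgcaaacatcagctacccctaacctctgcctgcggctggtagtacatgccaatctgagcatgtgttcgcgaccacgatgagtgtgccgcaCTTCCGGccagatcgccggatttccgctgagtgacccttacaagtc
NDUFA1, chrX:119871682-119871831, plus strand: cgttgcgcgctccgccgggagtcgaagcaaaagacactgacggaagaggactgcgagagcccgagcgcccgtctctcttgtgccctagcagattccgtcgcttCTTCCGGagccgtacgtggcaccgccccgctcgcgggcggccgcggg
ATP5H (ATP5PD), chr17:75046970-75047119, minus strand: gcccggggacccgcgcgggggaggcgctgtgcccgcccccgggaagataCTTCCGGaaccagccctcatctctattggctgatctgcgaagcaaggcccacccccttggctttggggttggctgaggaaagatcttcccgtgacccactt
The promoter of ATP5J held all 3 words, and those of UQCRH, NDUFA1 and ATP5H held the ETS core alone. The promoters of NDUFB8 and NDUFB1, which also differed between the lines, held none of the 3 words.

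LOXHD1, the target of the guide, stood at 21.4 and 21.2 FPKM in the RD-ES controls against 1.04 and 1.02 FPKM after eKD2. The SK-N-MC controls had 159 and 169 FPKM against 11.0 and 12 FPKM after eKD2. Within each line, every library thus matched its control or eKD2 label. LOXHD1 does not check which line a library came from. The read totals are not given with the values. Steps in values under 0.5 FPKM put the depth of the libraries between 0.578 and 2.32 times that of RD-ES control replicate 1, with RD-ES eKD2 replicate 1 the shallowest, but only 17.4% to 26.1% of the genes compared shared such a ratio. Of markers of other cells, PTPRC, which encodes the leukocyte protein CD45, was at 19.2 to 22.6 FPKM in the SK-N-MC libraries and at most 0.0173 FPKM in RD-ES. EPCAM, an epithelial marker, was at 2.96 to 4.54 FPKM in SK-N-MC and at most 0.971 FPKM in RD-ES. The muscle marker MYOG was listed at 0 in all libraries, and MYOD1, also of muscle, was at most 0.079 FPKM. ALB, a liver marker, was at most 2.91 FPKM. NR0B1, a target of the fusion, was at 51.0 to 59.6 FPKM in SK-N-MC and 2.38 to 3.84 FPKM in RD-ES. Further Ewing sarcoma markers ran in both directions (means of RD-ES control, then SK-N-MC control). CD99 was at 576 and 209 FPKM, LIPI at 59.2 and 20.9 FPKM and CCND1 at 649 and 476 FPKM. NKX2-2 was at 26.8 and 28.3 FPKM and STEAP1 at 62.8 and 76.0 FPKM. The part of all these markers in the differences between the lines given here was not tested. In bulk RNA, fewer cells of a type and less RNA per cell cannot be told apart.

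The subunit genes were among the most abundant transcripts of both lines. Their median level was 190 FPKM (mean over libraries), against 13.8 FPKM over all genes tested, and 57 of the 76 lay above 100 FPKM, as did 8.62% of all genes. Together they made up 2.53% to 2.78% of the summed FPKM of a library. The levels within a complex were far from equal, although the proteins stand in fixed ratios. In complex I they ran from 22.2 FPKM for NDUFV3, a small flavoprotein subunit, to 444 FPKM for NDUFS5, an accessory subunit. In complex II they ran from 64.9 FPKM for the membrane anchor SDHD to 317 FPKM for the iron-sulfur subunit SDHB. In complex III the Rieske iron-sulfur protein UQCRFS1 was at 14 FPKM, and the hinge protein UQCRH at 597 FPKM. The lowest in complex III was UQCRHL, a single-exon copy of UQCRH, at 10.2 FPKM. In complex IV COX7C, the highest of all 76 genes, was at 1533 FPKM. COX6B2 was the lowest there at 1.25 FPKM, but it is a testis form that passed the filter only through SK-N-MC. The next lowest was COX5B at 137 FPKM. In complex V ATP5B, the catalytic β subunit, was at 1491 FPKM, and ATP5S was the lowest at 15.8 FPKM. ATP5S (now DMAC2L) bears a subunit name but encodes a factor that is not a structural subunit. FPKM of short transcripts depends on the correction for length, and 43 of the 75 genes with an annotated canonical transcript have one under 1000 bases.

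**Figure D1:**
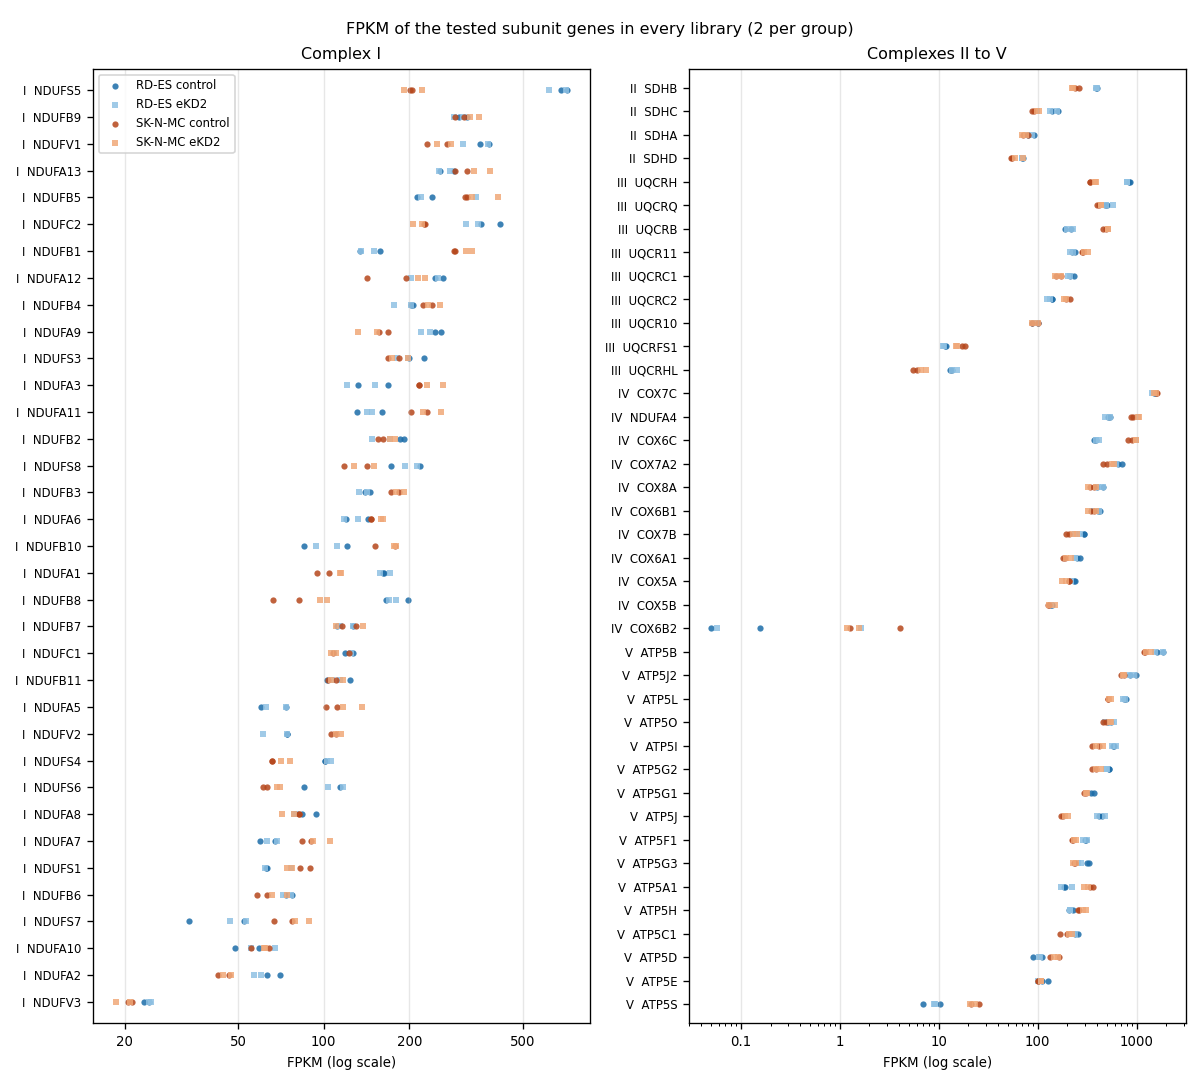
FPKM (log axis) of all but 1 of the 76 tested subunit genes in each of the 8 libraries, with complex I on the left and complexes II to V on the right; every point is 1 library, and color and shape give the group. Replicates lie close together for most genes. For genes such as NDUFS5, UQCRH, COX6C and ATP5J the cell lines lie further apart than eKD2 and control of a line.

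Replicate libraries differed little in these genes. The median SD between replicates on the log2(FPKM + 1) scale was 0.0692 to 0.0934 in the 4 groups, against 0.0819 to 0.122 over all genes tested. Fold changes and tests below are on this log2(FPKM + 1) scale, which understates the change of low genes, and the adjusted p-values are from limma with Benjamini-Hochberg adjustment over all 15175 genes.

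Tissue-specific isoforms were scarce. COX6A2 and COX7A1, the heart and skeletal muscle forms of complex IV subunits, were at most 0.142 FPKM and at 0 in all libraries, respectively, while their widely expressed partners COX6A1 and COX7A2 averaged 222 and 587 FPKM. COX7B2 reached at most 0.205 FPKM, beside 247 FPKM for COX7B. COX8C was listed at 0 in the 4 RD-ES libraries and in SK-N-MC was at 0.506 and 0.692 FPKM in control, or 0.515 and 0.853 FPKM in eKD2, beside 394 FPKM for COX8A. ATP5L2 was at most 0.127 FPKM, beside 644 FPKM for ATP5L. ATP5J2LP, which the name rule admits although the annotation calls it a pseudogene, was listed at 0 in all libraries. These 6 genes were the ones below 1 FPKM and were not tested. COX6B2, the testis form beside COX6B1 (381 FPKM), passed only through its SK-N-MC values: it was at 0.158 and 0.0506 FPKM in RD-ES control, at 1.65 and 0.0577 FPKM in its eKD2 cells, 4.03 and 1.29 FPKM in SK-N-MC control and, after eKD2, 1.56 and 1.18 FPKM. The replicates of COX6B2 spread more widely than the groups, apart from RD-ES control, which lay below both SK-N-MC groups.

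Silencing of the LOXHD1 enhancer in RD-ES left the subunit genes close to their control levels. None of the 76 passed an adjusted p of 0.05 (limma), where 0.343% of all genes did, and the smallest adjusted p was 0.18. At an unadjusted p under 0.05, 6 were lower and 0 higher in eKD2, against 3.79% lower and 8.49% higher of all genes. The median log2 difference of the 76 genes was -0.04, beside 0.03 over all genes, with 28 above 0 (56.2% of all genes) and 48 below (42.0%). That median was -0.0142 without RD-ES eKD2 replicate 2, -0.0689 without RD-ES control replicate 1 and -0.0579 without RD-ES eKD2 replicate 1, and -0.00896 after quantile normalization or -0.104 after scaling the libraries to 1 median. Both eKD2 libraries lay above both controls in 4 genes and below them in 19, against 24.2% and 15.1% of all genes. The 95% interval lay within a 1.5-fold change in either direction for 73 of the 76 genes (57.5% of all genes), so a larger change is within the error of only 3 of them.

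The 6 genes that were lower in RD-ES eKD2 at an unadjusted p under 0.05 belonged to complexes I, IV and V. ATP5G3, which encodes subunit c of the ATP synthase rotor, was at 319 and 329 FPKM in control against 259 and 274 FPKM in eKD2, a log2 difference of -0.28 (SE 0.0585, limma adjusted p = 0.18). ATP5G1, which encodes the same mature subunit c, was at 371 and 350 FPKM in control against 310 and 311 FPKM in eKD2 (log2 difference -0.22, SE 0.0567, limma adjusted p = 0.24). The values of both genes did not overlap between the groups. ATP5G2, the other gene for subunit c, was at 532 and 521 FPKM in control against 500 and 497 FPKM in eKD2. The summed level of the 3 genes was 1222 and 1200 FPKM in control against 1068 and 1082 FPKM in eKD2. NDUFB2, an accessory subunit of complex I, was at 192 and 185 FPKM in control against 148 and 171 FPKM in eKD2 (log2 difference -0.24). COX7B, a small subunit of complex IV, was at 296 and 293 FPKM against 241 and 268 FPKM (-0.21), and COX7A2 at 713 and 658 FPKM against 618 and 590 FPKM (-0.18). ATP5E, the ε subunit of ATP synthase, was at 111 and 127 FPKM in control against 106 and 100 FPKM in eKD2 (-0.20). All 6 were lower in both eKD2 libraries than in both controls, and limma adjusted p-values for the last 4 were 0.32 to 0.39. The one direction of these counts rested on single libraries: 4 genes were lower and 4 higher without RD-ES eKD2 replicate 2, and 3 lower and 2 higher without RD-ES control replicate 2. Without RD-ES eKD2 replicate 1 there were 3 lower and 0 higher, with only the compared libraries 2 and 0, with no trend in the variance 3 and 0, and after scaling to 1 median 13 and 0.

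In SK-N-MC eKD2 none of the 76 genes passed an adjusted p of 0.05 either (limma, 0.323% of all genes), and the smallest adjusted p was 0.17. At an unadjusted p under 0.05, 10 were higher and 3 lower, against 5.71% higher and 7.29% lower of all genes. The median log2 difference was 0.12, beside -0.00493 over all genes, with 57 of the 76 above 0 (47.6% of all genes) and 19 below (51.1%). In 39 genes both eKD2 libraries lay above both controls and in 9 below, against 22.2% and 25.1% of all genes. The median rested on 1 library to a large part: it was 0.05 without SK-N-MC eKD2 replicate 2, and the counts of 10 and 3 were 4 and 1 without that library, 4 and 2 without SK-N-MC control replicate 1, 7 and 0 without SK-N-MC control replicate 2 and 9 and 1 without SK-N-MC eKD2 replicate 1. They were 14 and 0 with only the compared libraries and 5 and 1 with no trend in the variance. The 95% interval lay within a 1.5-fold change for 71 of the 76 genes (58.5% of all genes).

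UQCRH had the smallest p in SK-N-MC, at 336 and 339 FPKM in control against 385 and 393 FPKM in eKD2, a log2 difference of 0.20 (SE 0.0417, limma adjusted p = 0.17). COX7A2 was at 499 and 463 FPKM in control against 560 and 593 FPKM in eKD2 (0.26, limma adjusted p = 0.22). NDUFB8, an accessory subunit of the membrane arm of complex I, had the highest difference of the 76, with 66.5 and 81.5 FPKM in control against 96.9 and 103 FPKM in eKD2 (0.44, SE 0.127, limma adjusted p = 0.26). These 3 genes were higher in both eKD2 libraries than in both controls. COX7B was at 193 and 208 FPKM against 231 and 249 FPKM, and NDUFA4, a subunit of complex IV named after complex I, at 876 and 932 FPKM against 1062 and 1033 FPKM. COX6C, a small subunit of complex IV, was at 820 and 903 FPKM in control against 998 and 979 FPKM in eKD2. ATP5H, the d subunit in the stalk of ATP synthase, was at 255 and 261 FPKM against 286 and 311 FPKM. NDUFA1, NDUFS4 and SDHD were the other members with an unadjusted p of at most 0.05, with log2 differences of 0.20, 0.15 and 0.25. The 3 lower genes were UQCRFS1, at 17.1 and 18.3 FPKM in control against 15.4 and 15.1 FPKM in eKD2 (-0.20), COX5A (-0.16) and SDHB (-0.16). Limma adjusted p-values of these 3 were 0.34 to 0.35.

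**Figure D2:**
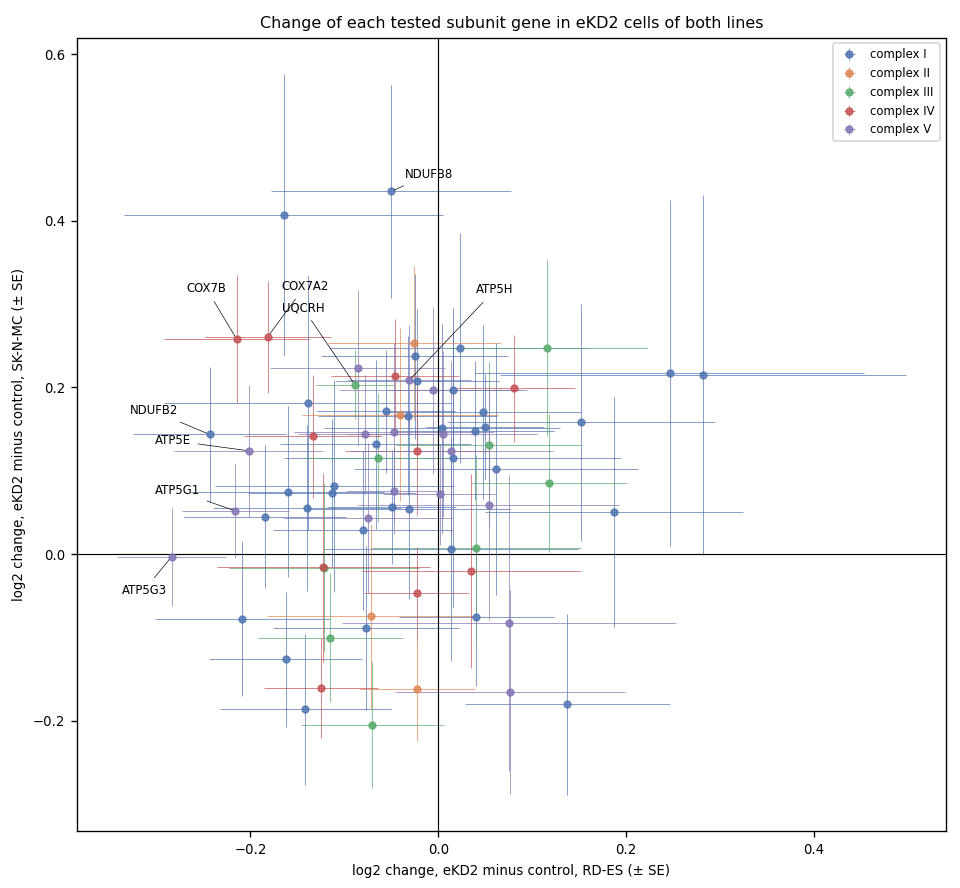
Log2 change in eKD2 (log2(FPKM + 1), eKD2 minus control) of the tested subunit genes in RD-ES (horizontal) and SK-N-MC (vertical), with bars for the limma standard error and colors for the complex; COX6B2, at 0.60 and -0.52, is left out of the plot. Most points lie above 0 on the SK-N-MC axis and spread around 0 on the RD-ES axis, and no gene reached an adjusted p of 0.05.

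The change in SK-N-MC minus the change in RD-ES was tested directly. No member passed an adjusted p of 0.05 (limma, 0.244% of all genes; smallest adjusted p 0.17). At an unadjusted p under 0.05 the change was higher in SK-N-MC for 11 genes and lower for 0, against 4.38% and 9.16% of all genes. These were UQCRH, COX7A2, COX7B, COX6A1, NDUFA4, NDUFB2, NDUFB8, ATP5E, ATP5G1, ATP5G3 and ATP5H. The median of this difference was 0.12 over the 76 genes and -0.05 over all genes, with 57 above 0 (43.7% of all genes) and 19 below (56.3%). COX7A2 and COX7B were the genes with an unadjusted p under 0.05 in both lines, lower in RD-ES eKD2 and higher in SK-N-MC eKD2, and their changes differed by 0.44 (SE 0.0952, limma adjusted p = 0.19) and 0.47 (SE 0.109, limma adjusted p = 0.21). Quantile normalization of the libraries gave 9 higher and 2 lower in place of 11 and 0, and scaling to 1 median gave 20 and 0. Without RD-ES eKD2 replicate 2 the counts were 6 higher and 3 lower, and with no trend in the variance 6 and 0. The median was 0.201 after scaling to 1 median.

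Library by library, the median of the 76 genes relative to the control mean was -0.02 and 0.02 in RD-ES control and -0.01 and -0.06 in RD-ES eKD2, so the groups overlapped within their spread apart from eKD2 replicate 2. In SK-N-MC it was -0.03 and 0.03 in control and 0.05 and 0.13 in eKD2. Complex IV spread most in SK-N-MC eKD2, at 0.02 and 0.18.

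**Figure D3:**
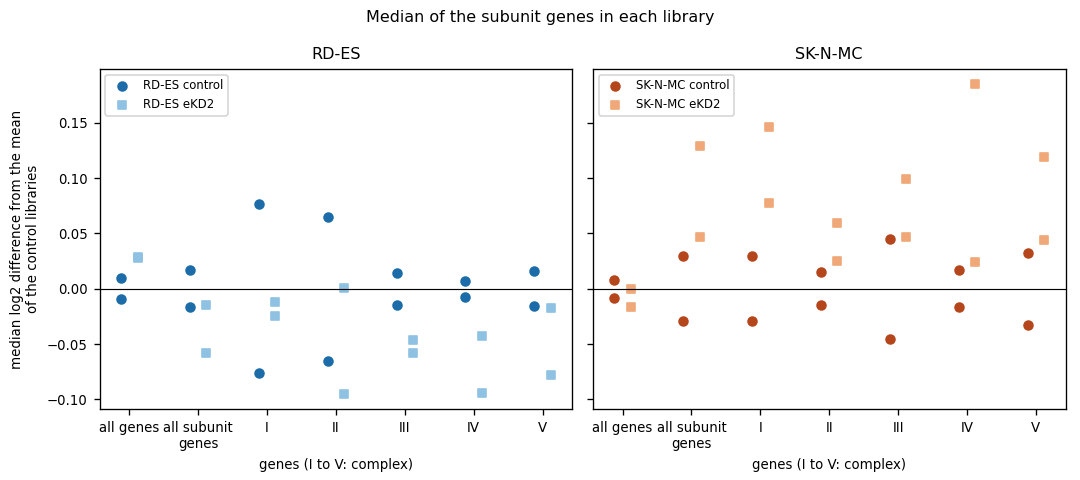
Median log2 difference from the mean of the control libraries of the same line, for all genes tested, all 76 subunit genes and each complex; every point is 1 library. In SK-N-MC the eKD2 libraries sit at 0.05 and 0.13 for all subunit genes while all genes stay at -0.02 and 0.00.

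The cell lines themselves differed far more than eKD2 and control. Between SK-N-MC control and RD-ES control, 57 of the 76 genes passed an adjusted p of 0.05 (limma), 75% beside 57.8% of all genes. Of these, 21 were higher in SK-N-MC and 36 lower, where 31.4% of all genes were higher and 26.4% lower. The median log2 difference was -0.20 for the 76 genes and 0.06 for all genes. At least a 1.5-fold difference with an adjusted p under 0.05 was reached by 26 genes (42.8% of all genes), and at least 2-fold by 9 (23.9% of all genes), so the share of large differences was below that of all genes. The members were more abundant than most genes, and the shares over all genes were not matched for level. With a mean of at least 5 FPKM, 56 of 75 members and 6820 of 11001 genes were called. The part of abundance in these shares was not tested. Scaling the libraries to 1 median gave 16 higher and 43 lower, with a median of -0.339, and quantile normalization 24 higher and 29 lower, with a median of -0.0794. The counts were 11 higher and 27 lower without SK-N-MC control replicate 2 and 13 and 27 without RD-ES control replicate 1. COX6B2, which passed the filter only through SK-N-MC, is 1 of the 21, and without it 20 of 75 genes were higher and 36 lower. The control libraries used here are the same as in the eKD2 comparisons. Each line stands for itself only, and line and culture cannot be told apart.

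**Figure D4:**
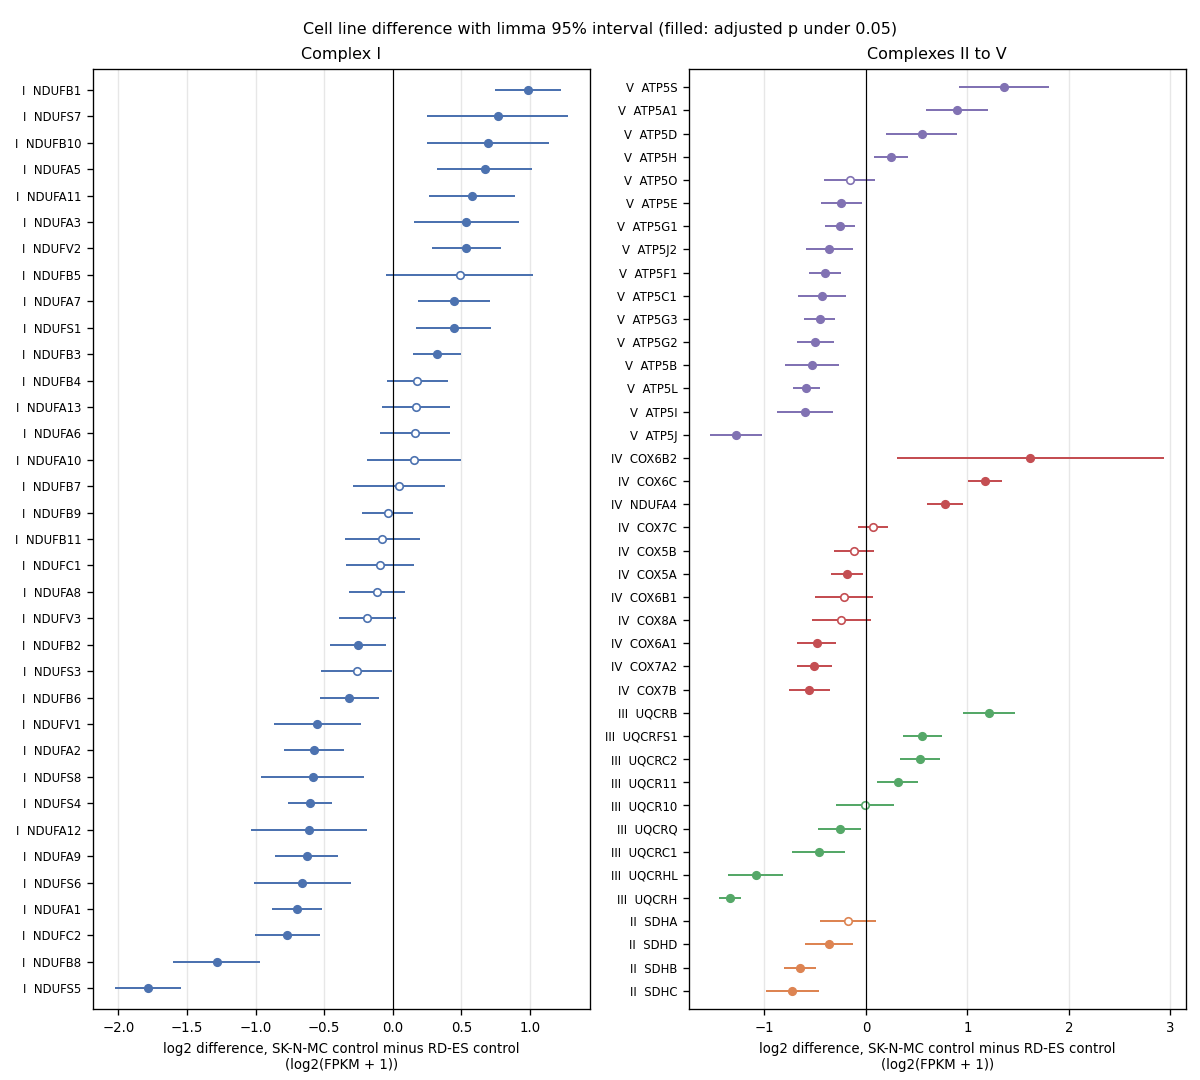
Log2 difference (log2(FPKM + 1), SK-N-MC control minus RD-ES control) of all but 1 of the tested subunit genes, each with its 95% interval from limma; filled points have an adjusted p under 0.05 and colors give the complex. In complexes I, III, IV and V the differences run in both directions, from -1.79 for NDUFS5 to 1.36 for ATP5S; COX6B2 lies higher, but passed the filter only through SK-N-MC.

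Of the 36 complex I genes, 10 were higher and 14 lower in SK-N-MC, beside 31.4% and 26.4% of all genes. The largest difference was that of NDUFS5 (GRCh37 chr1:39491990-39500308), at 684 and 718 FPKM in RD-ES control and 202 and 204 FPKM in SK-N-MC control, 3.45-fold lower in SK-N-MC (log2 difference -1.79, SE 0.0959, limma adjusted p = 4.3e-05). NDUFB8 was at 165 and 198 FPKM in RD-ES and 66.5 and 81.5 FPKM in SK-N-MC, 2.44-fold lower (limma adjusted p = 3.8e-04). NDUFA1, a small membrane subunit, was at 163 and 162 FPKM against 95 and 104.5 FPKM, 1.62-fold lower. In the other direction NDUFB1, another membrane subunit, was at 134 and 158 FPKM in RD-ES and 286 and 291 FPKM in SK-N-MC, 1.98-fold higher (limma adjusted p = 3.5e-04). The groups did not overlap in any of these 4 genes. Core subunits, which hold the flavin and iron-sulfur clusters or bind ubiquinone, differed in both directions. NDUFS1, NDUFS7 and NDUFV2 were higher in SK-N-MC, with log2 differences of 0.44, 0.76 and 0.53, and NDUFV1 and NDUFS8 were lower, with -0.55 and -0.59. NDUFS3 was at 200 and 224 FPKM in RD-ES and 185 and 168 FPKM in SK-N-MC and missed the threshold (limma adjusted p = 0.068). The calls of NDUFS1, NDUFS7, NDUFS8 and NDUFV1 were less firm. That of NDUFS1 was lost with median scaling, and those of NDUFS7 and NDUFS8 with only the compared libraries (limma adjusted p = 0.055, 0.081 and 0.059). Without RD-ES control replicate 1 those of NDUFS1 and NDUFS7 were lost, without RD-ES control replicate 2 those of NDUFS1, NDUFS8 and NDUFV1, without SK-N-MC control replicate 1 those of NDUFS7, NDUFS8 and NDUFV1, and without SK-N-MC control replicate 2 those of NDUFS1 and NDUFS7 (highest limma adjusted p 0.11). Of NDUFV2, 89.0% of the 75-base words also occur in other annotated genes, mainly an overlapping one, so its reads may be shared.

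In complex II, 3 of the 4 genes were lower in SK-N-MC and 0 higher, beside the 26.4% and 31.4% of all genes. SDHB was at 402 and 392 FPKM in RD-ES control and 241 and 265 FPKM in SK-N-MC control, 1.57-fold lower (log2 difference -0.65, SE 0.0617, limma adjusted p = 3.3e-04). SDHC, a membrane anchor, was at 160 and 139 FPKM against 88.2 and 91.1 FPKM (-0.73, limma adjusted p = 0.0017). SDHD, the other anchor, was at 71.9 and 69.1 FPKM against 54.3 and 54.8 FPKM (-0.36, limma adjusted p = 0.016). The call of SDHD was lost without RD-ES control replicate 1 and without either SK-N-MC control library (highest limma adjusted p 0.073). SDHA, the flavoprotein, was at 92.5 and 80.3 FPKM in RD-ES and 80.8 and 71.8 FPKM in SK-N-MC, and these groups overlapped (limma adjusted p = 0.22). Of SDHA, 68.5% of the 75-base words also occur in other genes, among them pseudogene copies.

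In complex III, 4 of 9 genes were higher and 4 lower in SK-N-MC, beside 31.4% and 26.4% of all genes. UQCRH (GRCh37 chr1:46769370-46782448) had the smallest p of the 76 genes, with 865 and 847 FPKM in RD-ES control and 336 and 339 FPKM in SK-N-MC control, or 856 ± 12.3 and 338 ± 1.75 FPKM (SD, n = 2 each), 2.53-fold lower (log2 difference -1.34, SE 0.0417, limma adjusted p = 7.2e-06). Its copy UQCRHL was at 13.7 and 13.0 FPKM in RD-ES and 5.50 and 6.02 FPKM in SK-N-MC, 2.12-fold lower. UQCRHL stood at 1.54% to 1.92% of UQCRH in every library, and the 2 genes share 41.1% of the 75-base words of UQCRHL, so the values of UQCRHL are uncertain. UQCRB, the ubiquinone-binding protein, moved the other way, from 219 and 188 FPKM in RD-ES to 458 and 488 FPKM in SK-N-MC, 2.32-fold higher (log2 difference 1.21, limma adjusted p = 1.8e-04). UQCRFS1 was at 12 and 11.5 FPKM against 17.1 and 18.3 FPKM, 1.47-fold higher. The core proteins split: UQCRC2 was 1.45-fold higher in SK-N-MC (140 and 141 FPKM against 215 and 193 FPKM), and UQCRC1 was 1.38-fold lower (215 and 236 FPKM against 152 and 174 FPKM). The call of UQCRC1 was lost without RD-ES control replicate 2 and without SK-N-MC control replicate 1 (highest limma adjusted p 0.055).

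In complex IV, leaving out COX6B2, 2 of 10 tested genes were higher and 4 lower in SK-N-MC, beside 31.4% and 26.4% of all genes. COX6C was at 389 and 372 FPKM in RD-ES control and 820 and 903 FPKM in SK-N-MC control, 2.26-fold higher (log2 difference 1.18, SE 0.0644, limma adjusted p = 4.5e-05). NDUFA4 was at 539 and 513 FPKM against 876 and 932 FPKM, 1.72-fold higher (limma adjusted p = 2.4e-04). COX7B was at 296 and 293 FPKM in RD-ES and 193 and 208 FPKM in SK-N-MC, 1.47-fold lower. COX7A2 was 1.42-fold lower and COX6A1 1.40-fold lower, and COX5A, at 233 and 240 FPKM against 206 and 209 FPKM, was 1.14-fold lower. COX7C, the most abundant gene, was at 1521 and 1506 FPKM in RD-ES and 1579 and 1598 FPKM in SK-N-MC, and the 95% interval of its log2 difference ran from -0.07 to 0.21. COX4I1, a nuclear-encoded subunit that the name rule leaves out, was at 366 and 406 FPKM in RD-ES and 215 and 235 FPKM in SK-N-MC (log2 difference -0.78, limma adjusted p = 3.3e-04).

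Complex V had the highest share of calls, 15 of 16 genes, 4 higher and 11 lower in SK-N-MC. Of all genes, 57.8% were called, 31.4% higher and 26.4% lower. ATP5J, coupling factor 6 in the stalk, was at 446 and 419 FPKM in RD-ES control and 182 and 173 FPKM in SK-N-MC control, 2.42-fold lower (log2 difference -1.28, SE 0.0998, limma adjusted p = 1.6e-04). ATP5J (GRCh37 chr21:27088815-27107984, minus strand) lies beside GABPA, the DNA-binding subunit of GABP, and an exon of ATP5J overlaps it. GABPA was at 17.2 and 15.3 FPKM in RD-ES and 17.5 and 16.9 FPKM in SK-N-MC, a log2 difference of 0.08 (limma adjusted p = 0.47). ATP5L, the g subunit of the membrane part, was at 753 and 792 FPKM against 513 and 516 FPKM (log2 difference -0.59). The catalytic head was split as well: ATP5A1, the α subunit, was at 189 and 184 FPKM in RD-ES and 337 and 359 FPKM in SK-N-MC, 1.86-fold higher (limma adjusted p = 0.0014), while ATP5B was at 1629 and 1854 FPKM against 1186 and 1219 FPKM, 1.44-fold lower (limma adjusted p = 0.0065). ATP5C1, the γ subunit, was at 257 and 241 FPKM against 201 and 170 FPKM, 1.35-fold lower, and its call was lost without RD-ES control replicate 1 and after quantile normalization (limma adjusted p = 0.054 in each).

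The 3 genes of subunit c were all lower in SK-N-MC control. ATP5G1 was at 293 and 312 FPKM there (log2 difference -0.25), ATP5G2 at 355 and 389 FPKM (-0.50) and ATP5G3 at 237 and 235 FPKM (-0.45), and their sum was 886 and 937 FPKM, beside 1222 and 1200 FPKM in RD-ES. The call of ATP5G1 was lost without SK-N-MC control replicate 1 and after quantile normalization (limma adjusted p = 0.053 and 0.23). ATP5G2 gave the largest share of the sum in all 8 libraries, 40.1% to 46.8%, followed by ATP5G1 with 28.7% to 33.5% and ATP5G3 with 24.2% to 27.4%.

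The differences between the lines were also set beside those of all genes on the same chromosome. Of the 76 genes, 55 had the same sign as the median of all genes tested on their chromosome, as did 59.2% of all genes, and so did 43 of the 57 called genes, beside 64.8% of all called genes. Chromosome 8 had the highest median, 0.78 over 573 genes, and holds UQCRB and COX6C, both higher in SK-N-MC, as well as NDUFB9, at 298 and 320 FPKM in RD-ES and 290 and 312 FPKM in SK-N-MC. On chromosome 1 the median was -0.28 over 1532 genes, and NDUFS5, SDHB, SDHC, UQCRH, UQCRHL and ATP5F1, which lie there, had log2 differences below 0. On chromosome 19 the median was 0.32, and its 11 members had a median of 0.54. On chromosome 18 the median was 0.74, and ATP5A1 and NDUFV2 had a median of 0.72. Elsewhere the members ran against their chromosome: on chromosome 5 its 6 members had a median of -0.42 beside 0.07 over all genes, on chromosome 4 the median of both members was -0.35 beside 0.18, on chromosome 9 that of both members was -0.22 beside 0.16, and COX7A2 on chromosome 6 was at -0.51 beside 0.19. ATP5J was at -1.28, beside a median of -0.28 on its chromosome 21. The lines' chromosome copy numbers were not measured here, and their part in these values was not tested.

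**Figure D5:**
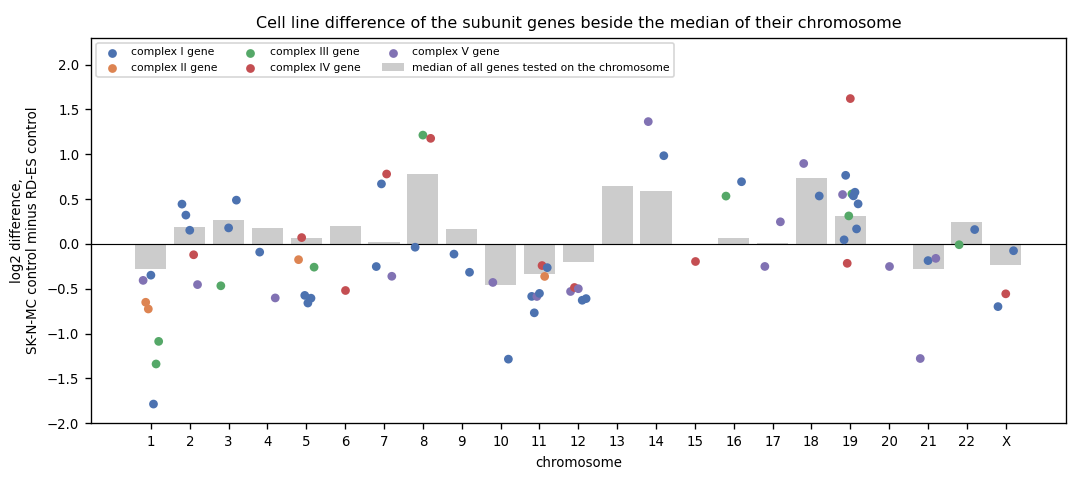
Log2 difference (SK-N-MC control minus RD-ES control) of each tested subunit gene (points, colored by complex) over the median of all genes tested on its chromosome (gray bars, log2 scale). Members on chromosomes 1, 11 and 12 lie below 0 and most on chromosome 19 above 0, in the direction of the gray bars.

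The promoter words were set beside the direction of the genes. The 18 genes with the ETS core had a median log2 difference between the lines of -0.26, with 3 called higher and 9 lower, and the 43 without it had -0.16, with 13 higher and 19 lower. Of the 13 genes with the NRF1 word 1 was called higher and 8 lower (median -0.43), and of the 48 without it 15 and 20 (-0.18). Of the 11 with the YY1 word 3 were higher and 6 lower (-0.41), and of the 50 without it 13 and 22 (-0.19). Among all genes tested, 31.4% were called higher and 26.4% lower. The groups with a word share genes, and no test was made.

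Other genes of the pathway were read from lists by role. None of the 9 tested subunits and carriers outside the name rule, the 47 assembly factors or the 13 transcription factors and coactivators passed an adjusted p of 0.05 in either eKD2 comparison (limma). At an unadjusted p under 0.05, the assembly factors were higher for 6 and lower for 2 in RD-ES eKD2, and higher for 3 and lower for 7 in SK-N-MC eKD2. Of all genes, 8.49% and 3.79% were so in RD-ES and 5.71% and 7.29% in SK-N-MC. Subunits and carriers were higher for 0 and lower for 1 in RD-ES and higher for 3 and lower for 0 in SK-N-MC, and the transcription factors higher for 1 and lower for 0 and higher for 0 and lower for 3. NDUFA4L2, a relative of NDUFA4 induced by hypoxia and 1 of the 3 higher carriers and subunits, reached the filter only through SK-N-MC eKD2. It was at 1.04 and 0.768 FPKM in SK-N-MC control and 3.74 and 4.16 FPKM in eKD2, and at 0.645 and 0.246 FPKM against 1.33 and 0.581 FPKM in RD-ES.

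Between the lines, 2 of the 9 subunits and carriers were higher in SK-N-MC and 2 lower, 9 of the 47 assembly factors were higher and 20 lower, and 4 of the 13 transcription factors were higher and 4 lower, beside 31.4% and 26.4% of all genes. The median log2 difference of the assembly factors was -0.21. TMEM70, an assembly factor of ATP synthase, had the highest difference of the 47. It was at 65.1 and 67.1 FPKM in RD-ES control and 311 and 304 FPKM in SK-N-MC control (log2 difference 2.20, limma adjusted p = 7.4e-06). In the more common direction, COA4 was at 141 and 155 FPKM against 47.1 and 45.1 FPKM. COX20 was at 33.8 and 26.7 FPKM against 6.58 and 9.86 FPKM. TFAM, which packages the mitochondrial chromosome and helps to start its transcription, was at 50.5 and 51.7 FPKM in RD-ES control. In SK-N-MC control it was at 28.7 and 28.2 FPKM (-0.82, limma adjusted p = 0.0011). TFB2M, its partner in initiation, was at 32.3 and 31.1 FPKM against 12 and 12.3 FPKM (-1.31, limma adjusted p = 1.5e-04). PPRC1, a coactivator of the PGC-1 family, was at 52.6 and 54.5 FPKM in RD-ES and 14.6 and 17.8 FPKM in SK-N-MC, while PPARGC1A, which encodes PGC-1α, was listed at 0 in both RD-ES controls and was at 5.17 and 2.37 FPKM in SK-N-MC, through which alone it passed the filter and entered the count of 4. NRF1 was at 12.7 and 13.4 FPKM in RD-ES and 13.5 and 12.4 FPKM in SK-N-MC. YY1 was higher in SK-N-MC control, at 97.2 and 95.8 FPKM against 60.1 and 64.1 FPKM in RD-ES control. TFB1M was higher as well, at 40.4 and 39.8 FPKM against 21.5 and 20.3 FPKM. GABPB2 ran the same way, at 13.2 and 13.7 FPKM against 6.91 and 5.77 FPKM.

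Reads of several members cannot be assigned with certainty. For 7 of the 76 genes (NDUFV2, NDUFA13, NDUFA7, NDUFB8, SDHA, NDUFA11 and ATP5O) over 50% of the 75-base words of their transcripts also occur in other annotated genes, while 40 have none. In 43 genes an exon overlaps another gene, and the counting is not stated to use strand.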

How the data were processed

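RNA-seq of 8 libraries (poly-A selected, single-end reads of 75 bases) was analysed from the deposited matrix of FPKM values. The authors aligned reads to hg19 (GRCh37) with STAR and made the FPKM values with Cuffnorm, which normalizes to transcript length and library size. Read counts were not used here, so depth was only estimated. The submitters' processing notes also name FastQC and DESeq2, a count test that cannot be run on FPKM. The genes averaging 1 FPKM or more were tested as log2(FPKM + 1) with limma 3.58.1 in R 4.3.3 (lmFit, eBayes with trend, 4 groups in 1 fit), with Benjamini-Hochberg adjustment and an adjusted p threshold of 0.05. limma was tested on simulated data. Alternatives were a pseudocount of 0.1, no filter, a mean of 5 FPKM, median scaling, quantile normalization, no trend, a replicate block, only the compared libraries, and leaving out each library. Gene positions, exons and 75-base words came from GENCODE 44 mapped to GRCh37. Named are called members (up to 12 per comparison by p), members with an unadjusted p under 0.05 in eKD2 (up to 10), the highest and lowest of each complex, isoform sets, catalytic subunits and members below the filter. Other genes named were chosen after their values were seen. They are NDUFB9, COX5B, COX7C, GABPA, GABPB2, NRF1, YY1, TFAM, TFB1M, TFB2M, PPRC1, PPARGC1A, TMEM70, COA4, COX20, COX4I1 and NDUFA4L2. Of the members, 1 that is counted in the totals is not reported here. The members and lists were chosen with earlier results of these data known.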

Additional observations from a re-analysis of the deposited data

How the results depend on the processing

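No subunit gene passed an adjusted p of 0.05 in either eKD2 comparison or in the difference between them under any alternative run, and 57 of 76 passed between the lines, with 38 (without SK-N-MC control replicate 2) to 58 when 1 library was left out, 51 with no filter or with only the compared libraries, 59 after median scaling (16 higher, 43 lower) and 53 after quantile normalization (24 higher, 29 lower). Median scaling moved the median of all genes between the lines from 0.06 to -0.07. The median log2 difference of the members in RD-ES eKD2 was -0.104 with median scaling and -0.00896 with quantile normalization, and ran from -0.0689 (without RD-ES control replicate 1) to -0.0142 (without RD-ES eKD2 replicate 2) with 1 library left out. In SK-N-MC eKD2 that range was 0.0472 to 0.129, and for the difference between the lines' changes 0.0853 to 0.169, with 0.201 after median scaling. Between the control lines the median was -0.339 with median scaling, -0.0794 with quantile normalization, and -0.214 to -0.170 with 1 library left out. The cause was not tested. In the checks of single named genes 954 kept their call, 24 lost it, 4 gained it and 0 reversed. Fits with 1 library in a group assume that it varies like the other groups. The difference between the changes needs both lines and was not run on the compared libraries alone. Replicates shared only a number (correlation of deviations 0.06 and 0.03). The replicate block left 0, 0, 0 and 57 members called and 11, 5, 7 and 8690 of all genes in the 4 comparisons, against 52, 49, 37 and 8777, with medians of -0.04, 0.12, 0.12 and -0.20. Depth is known only roughly, which limits members near 1 FPKM such as COX6B2.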
